A study of Mus musculus with 8 samples.

Results

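Naive-like LEF1 CD8 T cells were 1100 of 48214 quality-filtered leukocytes from mouse liver metastases, and 1100 of the 3964 CD8 T cells with a T cell receptor beta chain. A cell was a member if its barcode had a receptor beta (TRB) sequence, at least 1 unique molecular identifier (UMI, a count of captured RNA molecules) of Cd8a or Cd8b1, none of Cd4, at least 1 of Lef1, and none of Pdcd1 or Cxcr6. These counts chose the members, so the levels of the genes used, and every other difference in expression between the members and the other CD8 T cells, are given as description with no test. The receptor sequences and the comparison of knockout with control mice were not used to choose them.

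The series profiled sorted live CD45-positive cells from liver metastatic tumours of 4 mice, 30 days after Venus-labelled AKTPM/LOH colorectal cancer cells were injected into the spleen. A 5′ gene expression library and a T cell receptor library were made from each mouse. In the 2 knockout mice (genotype Vav1CreTet2KO) a Cre recombinase under the Vav1 promoter, which is active across the blood lineages, deletes floxed Tet2, so the deletion is not limited to T cells. The 2 control mice (Tet2fl/fl) carry the floxed alleles and are named without the Cre, and the ages of the mice are not given in the sources used here. TET2 is an enzyme that oxidises methylated cytosine in DNA, and its loss in blood cells is a frequent lesion in clonal hematopoiesis.

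Naive CD8 T cells are cells that have left the thymus and have not yet met their antigen. LEF1 and TCF-1 (the product of Tcf7) are transcription factors that hold this state, and the chemokine receptor CCR7 and the sphingosine receptor S1PR1 guide the cells through lymph nodes and blood. After antigen the cells divide, so that many cells share 1 receptor, and effector genes such as Gzmb and Ifng are switched on, while a tissue-residence receptor such as CXCR6 or the inhibitory receptor PD-1 (Pdcd1) may appear.

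Knockout mice 1 and 2 gave 371 and 326 members, and control mice 1 and 2 gave 269 and 134. Their median depth was 6746 and 6435 UMIs per cell in the knockout mice and 4844 and 4743 in the control mice, so the knockout members were more deeply counted. The other CD8 T cells had medians of 4283 to 4913 UMIs in all 4 mice. The expression libraries held 57190926 to 91789597 UMIs over all barcodes. Scrublet called 24, 23, 18 and 14 members doublets (knockout 1, knockout 2, control 1, control 2), and these cells were kept. Between 272 and 303 barcode sequences were shared by each pair of libraries, but no barcode was a member in both of a pair and none carried the same receptor in both.

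UMIs of marker genes of other leukocytes were present in the members and differed with genotype. The summed level of 12 macrophage markers in the members came to 1687 and 868 CPM (UMIs of a gene scaled by the total of the summed cells) in knockout members, against 5071 and 5099 CPM in control members. The whole libraries differed in the same direction, with 7137 and 7143 CPM against 22006 and 24508 CPM. Of these markers, Spp1 was at 0 in knockout mouse 1 and all 12 had UMIs in the other 3 mice. The 10 B cell markers went the other way, with 504 and 881 CPM in the knockout members against 272 and 172 CPM in the control members, and all 10 had UMIs in every mouse. The 7 neutrophil markers summed to 120, 128, 358 and 2571 CPM, the last in control mouse 2, with Cxcr2 and Mmp9 at 0 in knockout mouse 1 and Cxcr2 at 0 in control mouse 2. At least 1 UMI of the B cell or myeloid markers was present in 69, 73, 74 and 66 members, which is 18.6%, 22.4%, 27.5% and 49.3% of them. Free RNA, released by other cells and caught in every droplet, was scaled from these markers to an expected level for each gene, and its part in any result was not tested. A gene was called prone to free RNA where this expected level was at least 20% of its level in the higher group, and 7195 of the 9296 genes tested for genotype were prone.

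The receptor sequences, which the choice of members did not use, repeated less often in members than in the other CD8 T cells taken as a whole. A clone was defined by the V segment, the J segment and the nucleotides of the third complementarity-determining region (CDR3) of the beta chain, the most variable part of the receptor. Cells in clones of at least 2 cells were 13 of 371 members in knockout mouse 1 and 2 in each of the other mice, which is 3.50%, 0.613%, 0.743% and 1.49%. Among the other CD8 T cells the shares were 81.3%, 76.7%, 36.2% and 71.2%. In equal numbers of cells within each mouse, the share averaged 1.59% in the members and 58.9% in the other CD8 T cells, and it was lower in the members in 4 of 4 mice. The difference was -57.3 ± 17.4 percentage points (SD, n = 4 mice), with p = 0.125 in an exact two-sided sign-flip permutation test, the smallest p that 4 mice allow.

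The repeated clones that were found are few enough to print, and they show how small the groups of cells with a common receptor were. Each line gives the beta CDR3 nucleotides, 5′ to 3′, of the clone with the most members in a mouse. Capitals mark the bases between the longest match to the germline V segment and the longest match to the germline J segment, which match neither segment.
knockout mouse 1, TRBV12-2 or TRBV13-2 with TRBJ1-3: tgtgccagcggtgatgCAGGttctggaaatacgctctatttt
knockout mouse 2, TRBV13-1 with TRBJ1-1: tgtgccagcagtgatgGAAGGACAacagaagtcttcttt
control mouse 1, TRBV12-1 with TRBJ1-1: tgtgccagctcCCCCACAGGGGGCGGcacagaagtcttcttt
control mouse 2, TRBV26 with TRBJ1-2: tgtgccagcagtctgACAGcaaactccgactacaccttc
The clone of knockout mouse 1 had 5 members and 20 further CD8 T cells outside the group, and each of the other 3 had 2 members and no cell outside. The V and J genes lie on mouse chromosome 6, from 40868163 to 41535386 in GRCm39 (GENCODE M39).

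A small number of members carried the receptor of a clone that also had cells outside the group. By mouse these were 19 and 8 cells in the knockouts and 1 and 4 in the controls, from 27 of the 1089 member clones. The 2 largest such clones are shown because each joins 1 member to an expanded clone.
control mouse 2, TRBV12-2 or TRBV13-2 with TRBJ2-5: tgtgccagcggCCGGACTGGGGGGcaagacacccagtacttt
knockout mouse 1, TRBV13-3 with TRBJ2-1: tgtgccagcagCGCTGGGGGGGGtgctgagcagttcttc
The first had 218 cells outside the group and was the largest CD8 clone of control mouse 2, at 38.3% of its other CD8 T cells, and the second had 69. Of the 32 members with such a clone, 6 (18.8%) had a Ccr7 UMI and 28 (87.5%) a Ccl5 UMI. Of the other 1068 members, 932 (87.3%) had a Ccr7 UMI and 477 (44.7%) a Ccl5 UMI. Ccl5 encodes a chemokine of antigen-experienced T cells.

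No beta clone was found in members of more than 1 mouse. The mean CDR3 length was 41.6 nucleotides over member clones and 41.8 over the other clones, a difference of -0.22 ± 0.40 nucleotides (SD, n = 4 mice, p = 0.375, exact two-sided sign-flip permutation). The bases between the germline matches numbered 9.72 and 9.99 (difference -0.28 ± 0.26, SD, n = 4 mice, exact p = 0.25). An alpha chain was found in 292, 265, 230 and 118 members (knockout 1, knockout 2, control 1, control 2), and none was of the invariant NKT or MAIT type. The members without an alpha chain could not be checked for this.

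V segment use differed for a few segments. In clone numbers, 3 of 22 TRBV segments with at least 10 clones (13.6%) passed edgeR's quasi-likelihood test with the mouse as a block, all more frequent in members. TRBV14 took 4.68%, 4.62%, 4.48% and 5.26% of member clones (knockout 1, knockout 2, control 1, control 2) against 2.58%, 1.52%, 1.87% and 1.46% of the other clones (log2 difference 1.30 ± 0.23, SE, edgeR adjusted p = 0.0226). TRBV10 (log2 0.96 ± 0.18, edgeR adjusted p = 0.0236) and TRBV17 (log2 1.24 ± 0.30, edgeR adjusted p = 0.0362) were also more frequent in members of all 4 mice by edgeR. The calls depended on which mice entered: none of the 3 was left without knockout mouse 2 or without control mouse 2, and 1 was left without knockout mouse 1 or without control mouse 1. None was left without marker-holding cells, with at least 2 Lef1 UMIs required or after thinning to 1000 UMIs, where the smallest edgeR adjusted p was 0.0984, 0.384 and 0.765 and 5, 1 and 0 segments had an unadjusted p under 0.05. Between genotypes, 0 of 20 segments (0.0%) passed in the members by edgeR, and 0 had an unadjusted p under 0.05.

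**Figure D1:**
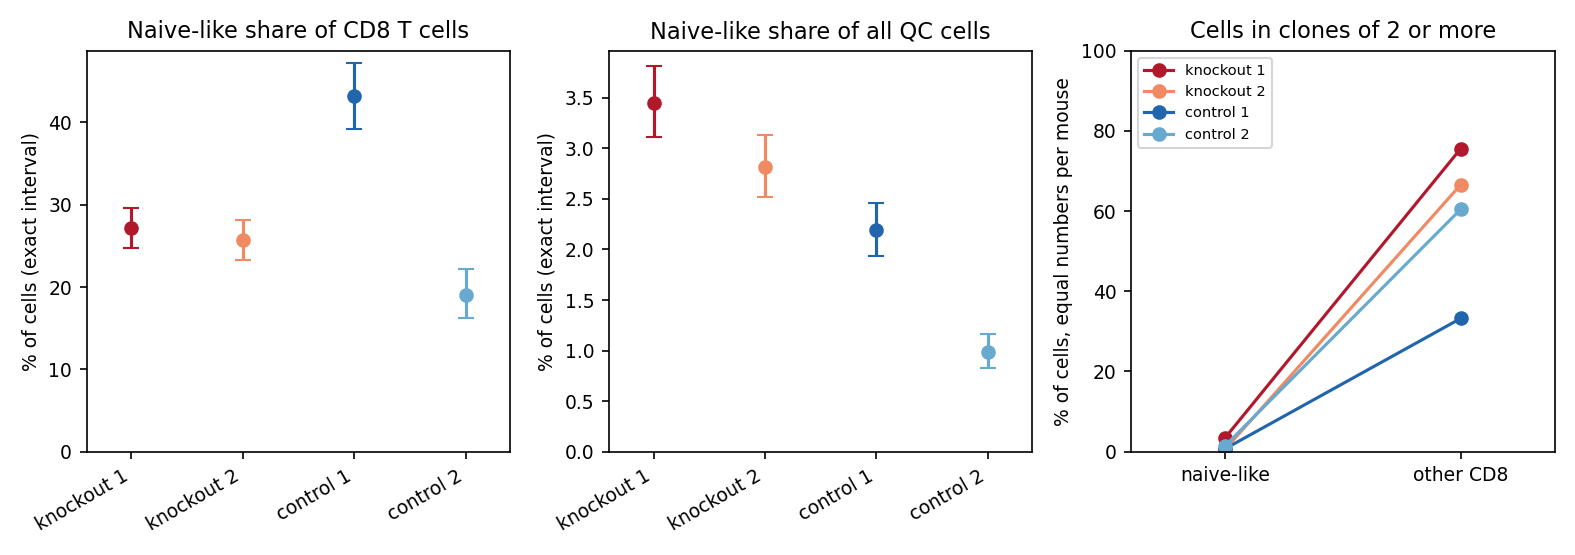
Left and middle, members as a percentage of CD8 T cells and of all quality-filtered cells in each mouse, with exact 95% binomial intervals that cover counting error only. Right, percentage of cells in clones of at least 2 cells, in equal numbers of members and other CD8 T cells within each mouse; all 4 lines rise from under 4% to between 33.2% and 75.6%.

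As a share of CD8 T cells the members made up 27.1% and 25.7% in the knockout mice and 43.2% and 19.1% in the control mice. The control values lie on either side of the knockout values, so the groups overlap (exact two-sided permutation p = 1.0). As a share of all quality-filtered cells they made up 3.45% and 2.81% in the knockout mice and 2.19% and 0.985% in the control mice, a difference of 1.55 percentage points. Those groups do not overlap, but the exact two-sided permutation p is 0.333, the smallest that 2 mice against 2 allow. Shares of all cells also move with the numbers of other leukocytes, and the difference was 0.59 points without the cells that held a B cell or myeloid marker UMI.

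Most listed genes of the naive state were higher in members. The members were chosen on Lef1, Pdcd1 and Cxcr6, so this is description and not a check of the label. Igfbp4 and Dapl1 are among the markers that go with the label, which was chosen with earlier results of these data known. Igfbp4, which encodes an insulin-like growth factor binding protein, stood at 170, 196, 237 and 142 CPM in members (knockout 1, knockout 2, control 1, control 2) and at 32.8, 16.99, 42.2 and 19.9 CPM in the other CD8 T cells. Dapl1, a marker of naive T cells, stood at 128, 127, 147 and 67.1 CPM against 25.2, 15.8, 38.8 and 6.41 CPM. Ccr7 stood at 946, 1100, 726 and 553 CPM against 205, 268, 271 and 101 CPM. All 3 were higher in members of every mouse, by 2.02 to 2.76 on the log2 scale on average. Of 20 naive and quiescence genes, 15 were higher in members of all 4 mice and none was lower in all 4, where 10.4% of 5826 genes with at least 20 CPM were higher and 50.5% lower. The largest differences upward were those of Igfbp4, Dapl1, Nsg2, Sidt1 and Ccr7, and Cmah, Satb1, Klf3 and Tcf7 were also among the 10 largest. The list genes Il7r, Ets1, Btg1, Cd27 and Ms4a4b were not higher in every mouse.

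Single cells gave the same picture with a depth limit. A Ccr7 UMI was seen in 86.8%, 89.6%, 84.4% and 72.4% of members, against 18.3%, 21.2%, 28.0% and 15.3% of the other CD8 T cells and 4.44%, 2.86%, 3.14% and 0.747% of C1q macrophages, whose median depths were 9510 to 12072 UMIs and which should lack the gene. After thinning every cell to 1000 UMIs the members' shares were 49.6%, 56.4%, 49.8% and 38.8%.

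Genes of antigen-experienced cells were low in members but not at 0. Of 13 cytotoxic genes measured, 12 were lower in members of all 4 mice, as were 15 of 17 exhaustion genes and 17 of 22 memory genes, beside the 50.5% of all genes. Gzmb, the protease granzyme B, stood at 41.3, 23.6, 82.0 and 91.7 CPM in members against 909, 940, 936 and 741 CPM in the other CD8 T cells. The 10 largest differences downward were Ccl1, Penk, Rgs16, Gzmb, Lag3, Ifng, Cd160, Fgl2, Ctla4 and Rora. Ccl1 and Penk had no UMI in members of any mouse. Among the exhaustion genes Id3 and Slamf6 went the other way and were higher in members of all 4 mice, at 179 against 115 CPM and 77.3 against 38.0 CPM on average. Of 18 proliferation genes, 16 were lower in members of all 4 mice, as were 11 of 19 homing genes, among them the integrin genes Itgae and Itga4 and the chemokine receptor gene Cxcr3.

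Members differed among themselves in genes of memory T cells. Ly6c2, a surface protein of memory T cells, was higher in members than in the other CD8 T cells of every mouse, at 893, 890, 680 and 1225 CPM against 558, 461, 496 and 275 CPM. Ccl5 was lower in members, at 2700, 1968, 1909 and 3028 CPM against 15024, 11786, 5816 and 8714 CPM, yet 505 of the 1100 members had at least 1 Ccl5 UMI. The share was 46.1%, 42.3%, 38.7% and 68.7% by mouse, the last in control mouse 2, against 2.31% to 7.18% of B cells, at 2503 to 3290 median UMIs, and 14.8% to 29.1% of C1q macrophages. Within the members, 203 of the 505 cells with Ccl5 (40.2%) had a Cd44 UMI and 444 (87.9%) a Ly6c2 UMI, against 81 (13.6%) and 290 (48.7%) of the 595 cells without it. Dapl1 went the other way, with a UMI in 109 (21.6%) and 266 (44.7%). In every mouse the cells with Ccl5 were also deeper, for example 7686 against 5961 UMIs per cell in knockout mouse 1, so shares of cells with a UMI are not at equal depth here, although Dapl1 and Ccr7 ran against the depth.

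**Figure D2:**
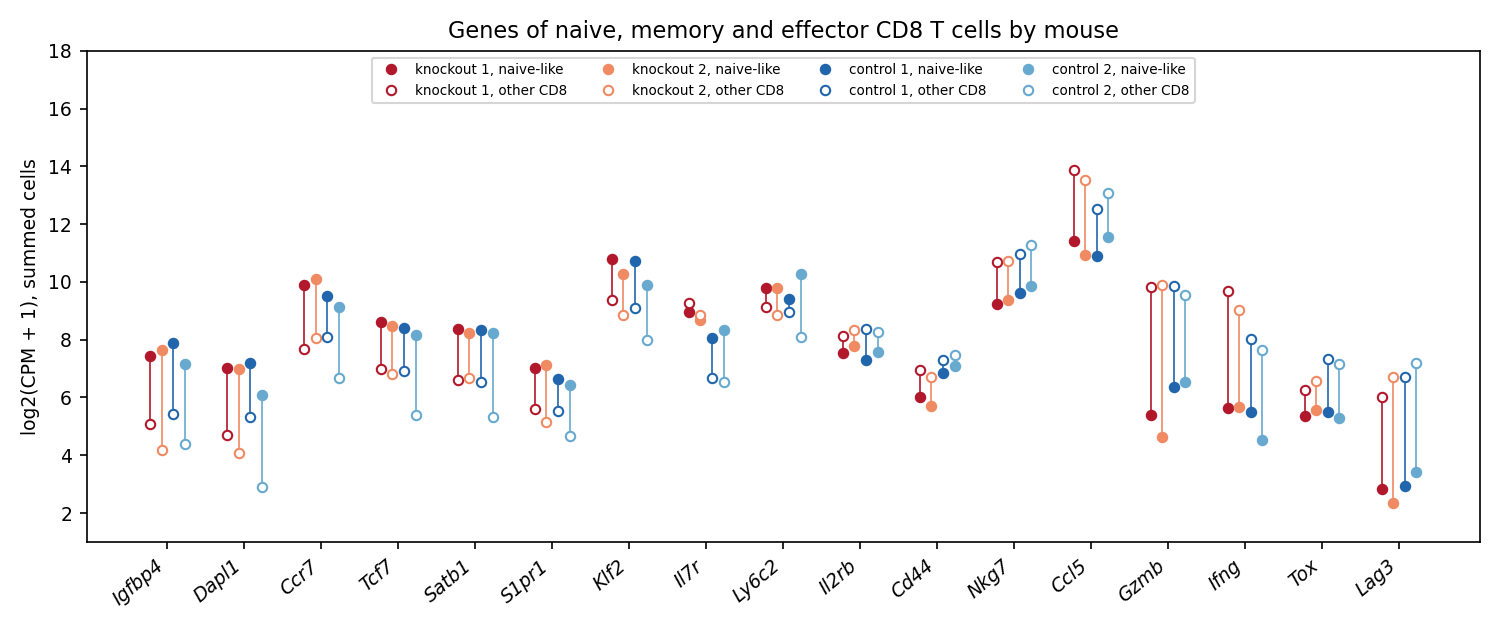
Level of each gene in summed cells of each mouse, as log2(CPM + 1), in members (filled points) and in the other CD8 T cells (open points); lines join the same mouse. Igfbp4 to Klf2 and Ly6c2 are higher in members of all 4 mice, Il7r is higher in members of the control mice only, and Il2rb to Lag3 are lower in members of all 4 mice.

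At the edge of the rule, cells with exactly 1 Lef1 UMI had 75, 62, 86 and 56 members and cells with at least 2 had 296, 264, 183 and 78. Cells just outside, with no Lef1, Pdcd1 or Cxcr6 UMI, numbered 112, 86, 84 and 91. In knockout mouse 1 Ccr7 stood at 409, 562 and 1029 CPM in cells with 0, 1 and at least 2 Lef1 UMIs, and Ccl5 at 12356, 7214 and 1721 CPM. In control mouse 2 the same levels were 328, 503 and 592 CPM for Ccr7 and 5204, 3882 and 2369 CPM for Ccl5. The members with 1 Lef1 UMI thus lay between the others in both genes. In control mouse 2 Dapl1 and Igfbp4 did not follow, at 18.9, 15.7 and 107 CPM and at 96.8, 81.7 and 189 CPM. Gzmb there stood at 158, 40.9 and 131 CPM. In each of the other mice the members with 1 Lef1 UMI lay between the others in Dapl1, Igfbp4 and Gzmb. Cells in clones of at least 2 cells, counted within each set of cells, were 35.7%, 14.0%, 0.0% and 12.1% of the cells just outside (knockout 1, knockout 2, control 1, control 2), 5.33%, 0.0%, 2.33% and 3.57% of members with 1 Lef1 UMI and 2.36%, 0.758%, 0.0% and 0.0% of those with at least 2. The cells just outside were thus below all other CD8 T cells in every mouse, and in control mouse 1 they held no repeated clone; the sets differ in size, which such a share moves with.

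Between genotypes, UMIs were summed over the members of each mouse and tested with edgeR's quasi-likelihood test on 9296 genes. At an adjusted p under 0.05, 405 genes (4.36%) differed, 107 higher (1.15%) and 298 lower (3.21%) in knockout members. Of the 405, 342 were prone to free RNA, and so were 288 of the 298 that fell. Without the members that held a B cell or myeloid marker UMI, 36 of 7748 genes (0.465%) passed, 25 higher (0.323%) and 11 lower (0.142%), and 33 of these 36 were among the 405. Leaving those cells out also removed 282 of the 1100 members. Without the 505 members with a Ccl5 UMI, 102 genes passed, 85 of them among the 405, and without control mouse 2, 160 passed. Of 40 genes named by rule that passed, 28 lost the call without control mouse 2, 23 with at least 2 Lef1 UMIs required, 15 without doublets, and 26 of the 39 that could be tested did so without Ccl5 cells, as did 26 of 39 without marker-holding cells. After thinning to 1000 UMIs before the choice of members, all 12 of these 40 genes that could be tested lost the call. With DESeq2 16 of the 40 lost it, and without genes prone to free RNA 10 of the 20 tested did. A sum over cells does not separate fewer cells with a transcript from less of it in each cell, so shares of cells are given beside some of the genes. Nothing in the labels says more of the replicates than that they are biological, and only 2 mice stand behind each group.

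Tet2 itself had 70, 39, 61 and 18 UMIs in the members, or 25.9, 16.96, 37.2 and 23.7 normalised CPM, and the groups overlapped (log2 -0.57 ± 0.29, SE, edgeR adjusted p = 0.385). The labels do not say which exons are deleted, and counts over the whole gene do not show whether the deleted part is present.

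**Figure D3:**
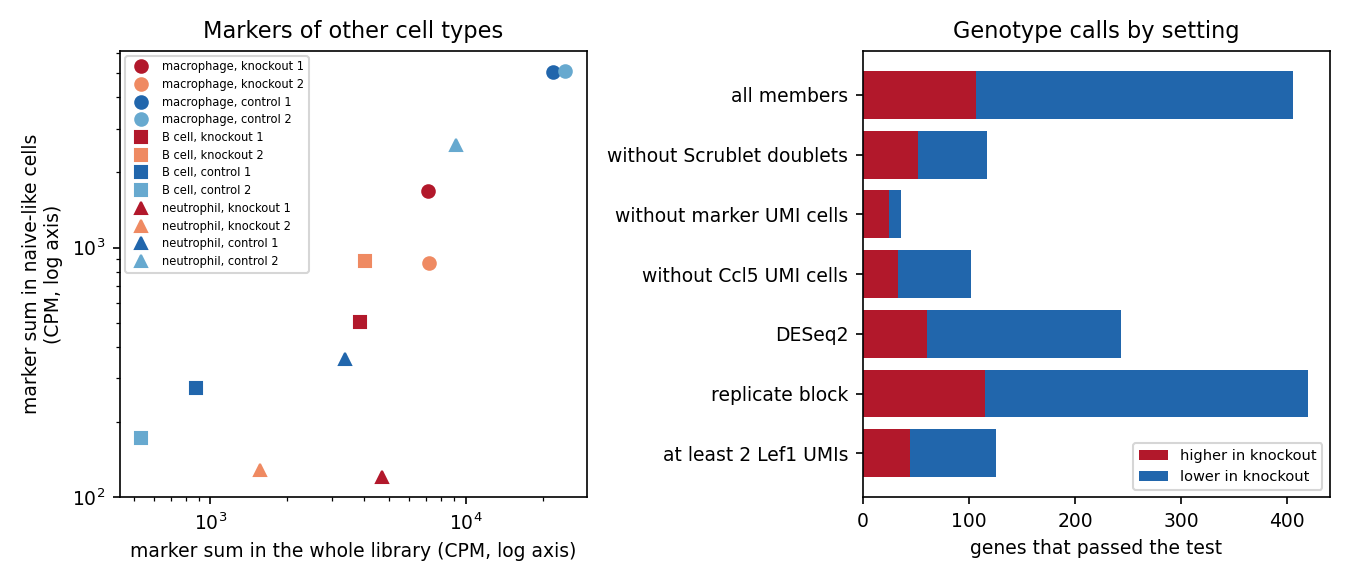
Left, summed markers of macrophages, B cells and neutrophils in members against the same sum in the whole library of that mouse, both in CPM on log axes. Right, number of genes that passed the genotype test in members under 7 settings; the bar falls from 405 for all members to 36 without cells that held a B cell or myeloid marker UMI.

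Of the genes called 84.4% were prone to free RNA, beside 77.4% of all genes tested. Among genes not prone to free RNA, 53 rose and 10 fell. When genes not prone were fitted alone, 16 of these 63 kept the call. Tubulin genes, which code for the subunits of microtubules, were among the genes that rose. As a group chosen after its values were seen, 6 of the 11 tubulin genes tested, prone or not, passed upward and 1 downward, and 5 of the 11 were prone to free RNA. Over all genes 1.15% passed upward and 3.21% downward. Tubb2a had 94.97 and 94.4 normalised CPM in knockout members and 36.6 and 18.5 in control members (log2 1.66 ± 0.24, SE, edgeR adjusted p = 0.00275). Tubb2a passed in the 19 alternatives where it was tested, but it could not be tested after thinning. Tuba1a had 138 and 133 against 65.8 and 51.4 normalised CPM (log2 1.17 ± 0.17, edgeR adjusted p = 0.00235). Tuba1b had 180 and 226 against 101 and 81.7 normalised CPM (log2 1.12 ± 0.17, edgeR adjusted p = 0.00359), and its adjusted p was 0.0502 without control mouse 2. Without Ccl5 cells Tuba1a (log2 0.87, edgeR adjusted p = 0.0687) and Tuba1b (log2 1.05, edgeR adjusted p = 0.333) did not pass. Both knockout mice lay above both control mice for each of these, as the rule for naming required. In control mouse 2 the levels came from 14 UMIs of Tubb2a, 39 of Tuba1a and 62 of Tuba1b. Tuba1a and Tuba1b are near-identical neighbours on chromosome 15 (98847714 to 98851589 and 98827738 to 98832493, GRCm39), and how their reads were divided is not given in the sources used here.

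Among genes not prone to free RNA the largest rise named by the rule was that of Fam241a (chromosome 3, 127662707 to 127689986), at 74.6 and 62.2 against 15.8 and 13.2 normalised CPM (log2 2.20 ± 0.24, edgeR adjusted p = 0.00054). It passed in 19 of 20 alternatives, among them the one without marker-holding cells (log2 2.00, edgeR adjusted p = 0.00177). The long noncoding RNA D030028A08Rik had 50.3 and 39.1 against 7.92 and 19.8 normalised CPM. Tmem108, a membrane protein gene, had 51.7 and 57.0 against 18.9 and 7.91 normalised CPM. In both cases the knockout mice lay above the control mice, as the rule for naming required. The log2 differences were 1.89 ± 0.35 (edgeR adjusted p = 0.0117) and 1.85 ± 0.29 (edgeR adjusted p = 0.0042). Tmem108 did not pass without marker-holding cells (edgeR adjusted p = 0.275). Other rises named by rule were Rrm2, a subunit of ribonucleotide reductase (log2 1.53), the scaffold gene Magi3 (1.23) and the RNA kinase gene Clp1 (1.10). In control mouse 2 these genes had few UMIs. Fam241a had 10, D030028A08Rik 15, Tmem108 6, Rrm2 14, Magi3 7 and Clp1 15. Without knockout mouse 1 or control mouse 1, D030028A08Rik had edgeR adjusted p = 0.0577 and 0.122, Rrm2 0.149 and 0.277, Magi3 0.224 and 0.145 and Clp1 0.16 and 0.0569. Without knockout mouse 2 Rrm2 had 0.0517 and Magi3 0.0625 in the same edgeR test, and without control mouse 2 Magi3 had 0.172 and Clp1 0.147. None of Rrm2, Magi3 and Clp1 passed without marker-holding cells by edgeR, with edgeR adjusted p = 0.792, 0.756 and 0.276, and without doublets Magi3 and Clp1 did not pass (0.222 and 0.111). Without Ccl5 cells none of the 3 passed by edgeR (0.143 to 0.368), and after thinning to 1000 UMIs Fam241a did not (0.375).

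Falls among genes not prone to free RNA numbered 10, and 8 met the rule for naming. Gm47015, a long noncoding RNA (chromosome 10, 79248796 to 79253739), had 5.54 and 6.52 normalised CPM in knockout members and 34.7 and 29.0 in control members (log2 -2.42 ± 0.30, edgeR adjusted p = 0.00101). Gm47015 passed in the 19 alternatives where it was tested, but it could not be tested after thinning. Tnfrsf14, which encodes the costimulatory receptor HVEM (chromosome 4, 155005126 to 155013020), had 6.28 and 3.48 against 21.9 and 34.3 normalised CPM (log2 -2.41 ± 0.39, edgeR adjusted p = 0.00505). Ldlrad4, an inhibitor of TGF-beta signalling, had 52.8 and 57.8 against 104 and 112 normalised CPM (log2 -0.95 ± 0.16, edgeR adjusted p = 0.00636). The knockout members held 15 and 15 UMIs of Gm47015, 17 and 8 of Tnfrsf14 and 143 and 133 of Ldlrad4. Control values were above knockout values in every case, as the rule for naming required. All 3 genes also passed without marker-holding cells, with edgeR adjusted p = 0.0013, 0.0484 and 0.0219. Without control mouse 2 Tnfrsf14 had an edgeR adjusted p of 0.0555 and Ldlrad4 of 0.0508, and Ldlrad4 had 0.0515 without knockout mouse 1. Without Ccl5 cells Ldlrad4 did not pass (log2 -0.83, edgeR adjusted p = 0.209).

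Bcl2, the survival factor that interleukin-7 maintains in naive T cells (chromosome 1, 106465908 to 106642060), had 206 and 209 normalised CPM in knockout members and 291 and 413 in control members (log2 -0.75 ± 0.17, edgeR adjusted p = 0.0298). It passed without marker-holding cells (log2 -0.85, edgeR adjusted p = 0.0219) but not without control mouse 2 (log2 -0.49, edgeR adjusted p = 0.166), knockout mouse 1 (0.137), knockout mouse 2 (0.109) or Ccl5 cells (0.111). A930005H10Rik, a long noncoding RNA, fell with log2 -0.73 and the flippase gene Atp10a with -1.38. Atxn1, the ataxin-1 gene, fell with -0.96 and Tmsb10b, a copy of a thymosin gene whose reads may be shared with it, with -0.95. Of these 4, A930005H10Rik passed without marker-holding cells (edgeR adjusted p = 0.0107) and the other 3 did not (0.149 to 0.424), nor did those 3 without Ccl5 cells (0.400 to 0.509). Leaving out knockout mouse 1, knockout mouse 2 or control mouse 2 ended each of these 4 calls (edgeR adjusted p = 0.0735 to 0.222), and leaving out control mouse 1 ended those of A930005H10Rik (0.115) and Atp10a (0.0737).

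Ribosomal protein genes formed a second group chosen after its values were seen: 18 of 81 passed, all higher in knockout members, and 9 of 81 passed without marker-holding cells. Over all genes 1.15% passed upward, and 0.323% without marker-holding cells. Rps27 had 6189 and 7228 against 4540 and 3733 normalised CPM (log2 0.70 ± 0.11, edgeR adjusted p = 0.00824). Rps21 had 6257 and 6862 against 4533 and 3796 normalised CPM (log2 0.65 ± 0.09, edgeR adjusted p = 0.00275). Without control mouse 2 Rps27 had an edgeR adjusted p of 0.0502. These genes have many processed copies in the genome that can share their reads. The knockout members were also more deeply counted, and the part of depth in this was not tested.

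**Figure D4:**
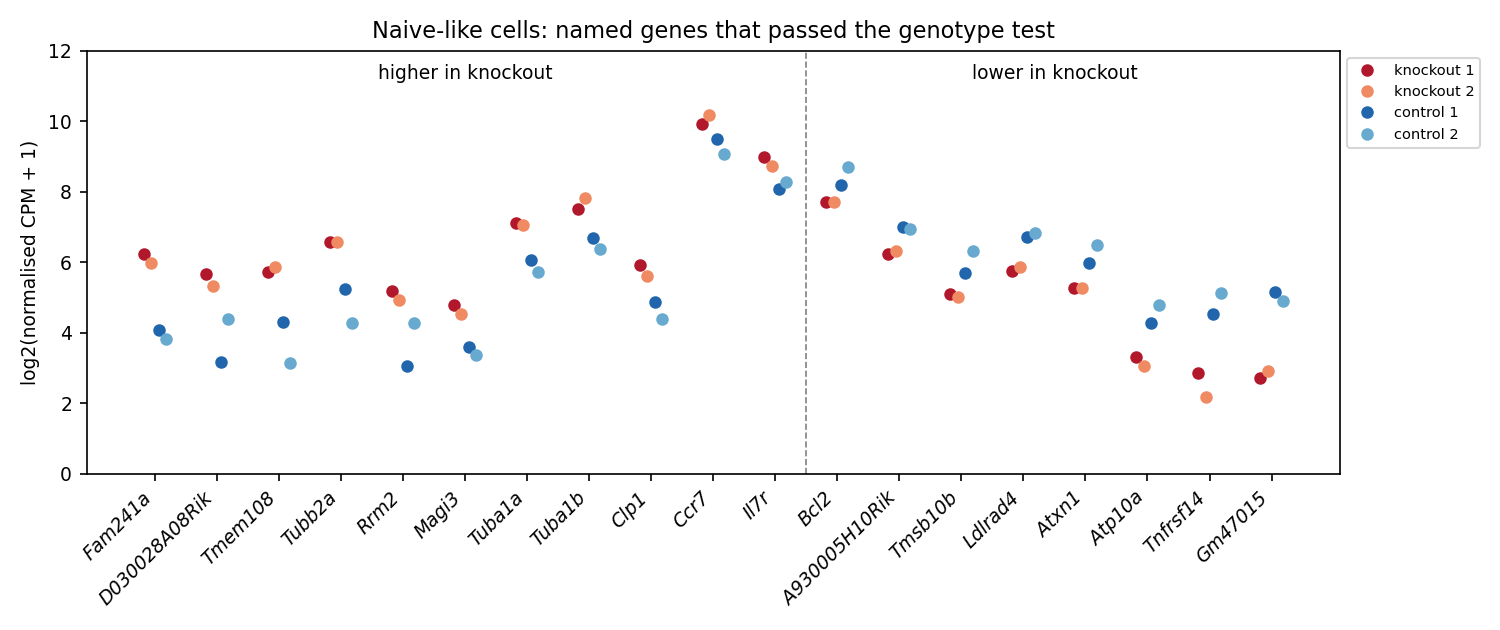
Level in members of each mouse as log2(normalised CPM + 1) for genes not prone to free RNA that the naming rule gave, with Ccr7 and Il7r. To the left of the dashed line both knockout mice lie above both control mice, and to the right both lie below. The naming rule required this of all genes shown except Ccr7 and Il7r.

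The lists of pathway genes, here and below, were read by their counts. These stand beside the 1.15% of all genes that passed upward and the 3.21% that passed downward in members. Of the 20 naive and quiescence genes 2 passed, both higher in knockout members, and the median log2 difference was 0.21 beside 0.01 over all genes. Ccr7 had 973 and 1157 against 723 and 532 normalised CPM (log2 0.76 ± 0.15, edgeR adjusted p = 0.021), and did not pass without doublets (edgeR adjusted p = 0.148), without marker-holding cells (0.357), without knockout mouse 2 (0.11) or without control mouse 2 (0.11). Il7r, the interleukin-7 receptor that naive cells need to survive (chromosome 15, 9505874 to 9530262), had 507 and 427 against 267 and 311 normalised CPM (log2 0.70 ± 0.14, edgeR adjusted p = 0.0161), and did not pass without marker-holding cells (edgeR adjusted p = 0.125), without knockout mouse 1 (0.137), without control mouse 1 (0.0981) or without Ccl5 cells (log2 0.41, 0.548). Both knockout mice lay above both control mice for the 2 genes. An Il7r UMI was present in 86.8%, 88.0%, 66.5% and 66.4% of members, and in 40.2%, 34.7%, 25.7% and 24.6% after thinning to 1000 UMIs, against at most 8.47% unthinned and 0.746% thinned in the C1q macrophages. The other 18 did not pass. Satb1 had 341 and 315 against 319 and 289 normalised CPM, while Klf2 had 1806 and 1301 against 1677 and 905 and Tcf7 397 and 370 against 335 and 275. Dapl1 (132 and 133 against 146 and 64.6) and Igfbp4 (175 and 207 against 236 and 137) overlapped between the groups. S1pr1 had 131 and 145 against 99.3 and 81.7 normalised CPM (log2 0.58 ± 0.16) with an edgeR adjusted p of 0.0652.

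Of 20 homing, egress and retention genes Ccr7 passed upward and Ccr2 downward, with a median of 0.04. Ccr2, a chemokine receptor also abundant on monocytes, had 43.2 and 26.1 against 108 and 123 normalised CPM (log2 -1.70 ± 0.22, SE, edgeR adjusted p = 0.00202). It was prone to free RNA, and without marker-holding cells its difference was 0.06 (edgeR adjusted p = 0.992), and without doublets it had 0.0885.

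Genes of interleukin-7 and common gamma chain signalling split. Of 17 tested, Il7r passed upward and 3 passed downward, namely Bcl2 and the cytokine signalling inhibitor genes Cish and Socs3. Cish had 10.7 and 12.6 against 26.8 and 36.9 normalised CPM (log2 -1.40, edgeR adjusted p = 0.0162) and Socs3 106 and 148 against 229 and 200 (log2 -0.77, edgeR adjusted p = 0.0316). The median over the 17 was -0.26. Both inhibitor genes were prone to free RNA and did not pass without marker-holding cells (edgeR adjusted p = 0.574 and 0.108), without knockout mouse 1 (0.104 and 0.255) or without control mouse 2 (0.129 and 0.124), nor did Socs3 without control mouse 1 (0.219). Without Ccl5 cells neither passed by edgeR (0.181 and 0.107), and Cish did not without doublets (0.074). Of 12 TGF-beta genes, the receptor gene Tgfbr1 passed upward (log2 1.17) and the signalling inhibitor genes Ldlrad4 and Ski (log2 -0.86) passed downward. Tgfbr1 and Ski were prone to free RNA, and without marker-holding cells had edgeR adjusted p = 0.0866 and 0.437. Leaving out knockout mouse 1 or control mouse 2 also ended both calls (0.0656 and 0.073 for Tgfbr1, 0.115 and 0.0677 for Ski), and Ski also did not pass without knockout mouse 2 (0.168) or control mouse 1 (0.212). Without Ccl5 cells neither passed by edgeR (0.20 for Tgfbr1, 0.598 for Ski), and Ski did not without doublets (0.212). Of 18 MHC class I genes, 15 of them prone to free RNA, H2-T22 passed upward (log2 0.61, edgeR adjusted p = 0.0314) and was prone. It did not pass without marker-holding cells (edgeR adjusted p = 0.241), without doublets (0.151), without Ccl5 cells (0.514) or when any 1 mouse was left out (log2 0.56 to 0.67).

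Of 22 memory genes 4 passed downward and 1 upward, beside 3.21% and 1.15% of all genes, with a median of 0.01. Fcer1g (log2 -1.63), Cd44, S100a4 (-1.11) and S100a6 (-1.41) fell, and Cd7 rose (0.73). Cd44, the adhesion receptor of activated cells, had 66.1 and 53.9 against 114 and 129 normalised CPM. All 5 were prone to free RNA, and the first 4 are also abundant in myeloid cells. The macrophage markers fell with them, with 6 of 12 passing downward and a median of -1.97. Without marker-holding cells S100a6 passed (log2 -0.86, edgeR adjusted p = 0.0223), while Fcer1g (log2 -0.53), Cd44 (-0.24), S100a4 (0.55) and Cd7 (0.47) did not. S100a6 had 228 and 159 against 428 and 608 normalised CPM in all members. Without control mouse 2 Cd44, S100a4, S100a6 and Cd7 had edgeR adjusted p = 0.0601, 0.0747, 0.062 and 0.146, and Cd7 had 0.221 without knockout mouse 2 and 0.128 without control mouse 1. Without doublets Fcer1g, Cd44, S100a4 and Cd7 did not pass by edgeR (0.111, 0.341, 0.748 and 0.175), and without Ccl5 cells S100a4 and Cd7 did not (0.123 and 0.367). Of the other memory genes, 7 fixed for naming did not pass: Ccl5 (log2 0.01), Ly6c2 (0.01), Klrd1 (0.06), Il2rb (0.33), Klrc1 (0.37), Gzmm (0.37) and Nkg7 (-0.34), nor did Eomes (-0.29) and Cxcr3 (-0.26).

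Cytotoxic genes passed only downward, 3 of 13, beside 3.21% of all genes. Of the 13, 12 were prone to free RNA, among them all 3 that passed. Gzmb had 42.5 and 24.8 against 81.7 and 88.3 normalised CPM (log2 -1.31 ± 0.24, edgeR adjusted p = 0.0111). Its level was lower in both knockout mice than in both control mice, as for 2268 of the 9296 genes tested. Gzmb passed without marker-holding cells (log2 -1.72, edgeR adjusted p = 0.00359). It did not pass without control mouse 1 (log2 -1.36), without control mouse 2 (log2 -1.26) or with at least 2 Lef1 UMIs required (edgeR adjusted p = 0.382). Without Ccl5 cells Gzmb had too few counts to be tested. A Gzmb UMI was present in 5.39%, 3.99%, 5.95% and 9.70% of members, against 0.577% to 2.18% of B cells at 2503 to 3290 median UMIs. Zeb2 (log2 -1.22) and Ccl3 (-1.40) did not pass without marker-holding cells (edgeR adjusted p = 0.94 and 0.802), and Ccl3 not without knockout mouse 1 (0.115) or control mouse 2 (0.0611). Zeb2 also did not pass without doublets (edgeR adjusted p = 0.275) or Ccl5 cells (0.110). Gzma (-0.49), Gzmk (-0.47) and Ifng (0.52) did not pass. Of 16 exhaustion genes Entpd1 passed downward (log2 -1.57) and Nr4a2 upward (0.81), and Tox (0.11), Lag3 (-0.50) and Tigit (0.28) did not pass. Of the 16, 15 were prone to free RNA, Entpd1 and Nr4a2 among them. Nr4a2, an early gene of receptor stimulation, had 175 and 157 against 108 and 75.1 normalised CPM and passed without marker-holding cells (log2 0.98, edgeR adjusted p = 0.0219), but not without knockout mouse 1 (0.128), control mouse 2 (0.147) or Ccl5 cells (0.442). Entpd1 had too few counts to be tested there, stood at log2 -0.52 without doublets (edgeR adjusted p = 0.788) and had 0.352 without Ccl5 cells, and did not pass without knockout mouse 1, control mouse 1 or control mouse 2 (edgeR adjusted p = 0.0597 to 0.0858).

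Of 23 immediate early genes, 19 of them prone to free RNA, Nr4a2 and Nr4a3 (log2 0.64) passed upward, and both were prone. Cd69, an early activation marker, had 356 and 381 against 466 and 229 normalised CPM. Of 12 heat shock genes, 11 of them prone to free RNA, Dnaja1 passed upward and was prone. It had 720 and 599 against 425 and 320 normalised CPM (log2 0.81, edgeR adjusted p = 0.0132). It did not pass without marker-holding cells (edgeR adjusted p = 0.132), without Ccl5 cells (0.157), without knockout mouse 1 (log2 0.69) or without control mouse 2 (log2 0.64). Nr4a3 did not pass by edgeR when any 1 mouse was left out (adjusted p = 0.111 to 0.276), without marker-holding cells (0.141) or without Ccl5 cells (0.613). Of 40 type I interferon genes none passed by edgeR or DESeq2 and 9 had an unadjusted edgeR p under 0.05, with a median of 0.25, and 19 of them had both knockout mice above both control mice where 23% of all genes (2134 of 9296) were separated in that direction, and 35 of the 40 were prone to free RNA. Irf7 had 105 and 88.7 against 65.8 and 33.0 normalised CPM (log2 0.87, edgeR adjusted p = 0.105). Isg15 had 90.5 and 98.3 against 115 and 31.6 normalised CPM, with the control mice on either side, and Ifit3 (log2 0.70) and Bst2 (0.31) did not pass. Of 22 interferon gamma genes none passed by edgeR, 2 had an unadjusted p under 0.05 and 1 passed by DESeq2. Of 9 DNA methylation genes none passed by edgeR or DESeq2 and 4 had an unadjusted edgeR p under 0.05. Beside these counts, 1475 of all 9296 genes tested had an unadjusted edgeR p under 0.05 and 243 passed by DESeq2. Of 23 transcription factors of T cell fate only Zeb2 passed.

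Some proliferation genes rose in knockout members while most fell in the other CD8 T cells of the same mice. Of 17 tested in the members, 15 of them prone to free RNA, Stmn1, Top2a, Tubb5 and Rrm2 passed upward and none downward, with a median of 0.81. Without marker-holding cells 0 of 16 passed by edgeR, with a median of 0.54, and Tubb5 had an edgeR adjusted p of 0.375 there, 0.0598 without doublets, 0.122 without knockout mouse 1 and 0.128 without control mouse 2. Of 18 tested in the other CD8 T cells 12 passed downward and none upward, with a median of -1.08. In the other CD8 T cells 1401 of 11166 genes (12.5%) passed, 583 higher (5.22%) and 818 lower (7.33%). These cells were a mixture whose make-up differed between mice. Cells with a Cxcr6 but no Pdcd1 UMI were 460 of 997 and 374 of 944 in knockout mice. In control mice they were 95 of 354 and 151 of 569. Cells with no Lef1, Pdcd1 or Cxcr6 UMI numbered 112 and 86 against 84 and 91. The part of this make-up in the genotype differences, here and below, was not tested. The difference between the 2 populations was tested in 1 edgeR fit with the mouse as a block, as the genotype difference in members minus that in the other CD8 T cells. It passed for 171 of 10747 genes (1.59%), 98 above 0 (0.912%) and 73 below 0 (0.679%), and 13 of 18 proliferation genes were among those above 0. Without control mouse 2 the difference passed for 349 genes, and without marker-holding cells for 66. In the other CD8 T cells leaving out knockout mouse 1 gave 429 genes, knockout mouse 2 gave 442 and control mouse 2 gave 930.

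Stmn1, a microtubule-destabilising protein of dividing cells, had 114 and 92.6 normalised CPM in knockout members and 46.3 and 46.1 in control members, and 127 and 106 against 252 and 261 in the other CD8 T cells. The difference between populations was log2 2.32 ± 0.16 (SE, edgeR adjusted p = 1.68e-06). Top2a, the DNA topoisomerase of dividing cells, had 54.7 and 47.4 against 21.9 and 15.8 in members and 66.0 and 58.0 against 142 and 107 in the other cells (log2 2.45 ± 0.22, edgeR adjusted p = 1.78e-05). For both genes the knockout mice lay above the control mice in members and below them in the other cells. In the members both were prone to free RNA and did not pass without marker-holding cells (log2 0.70 and 0.81, edgeR adjusted p = 0.238 and 0.413) or without Ccl5 cells (0.247 and 0.311), and Top2a had 0.0582 without control mouse 2. The members' levels were below those of the other CD8 T cells in each of the 4 mice.

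Il7r differed between the populations in the other direction. In the other CD8 T cells it had 620 and 480 normalised CPM in knockout mice and 101 and 88.9 in control mice (log2 2.53 ± 0.17, edgeR adjusted p = 9.54e-05), a larger difference than in the members (difference of differences -1.80 ± 0.14, SE, edgeR adjusted p = 4.18e-06). The control members thus held more Il7r than the other control CD8 T cells, at 268 and 323 against 101 and 91.3 CPM, while in knockout mice they held less, at 493 and 406 against 618 and 462 CPM. Ccl5, at 2776 and 2070 against 1902 and 2915 normalised CPM in members, was at 15073 and 12254 against 5830 and 8488 in the other CD8 T cells (difference of differences -0.90 ± 0.07, edgeR adjusted p = 3.35e-06). Ccl5 groups overlapped in members and did not in the other cells. The difference between populations also passed for Tuba1b (1.48 ± 0.16, edgeR adjusted p = 0.000153). For Tuba1a, Tubb2a, Fam241a and Gm47015 it did not pass (edgeR adjusted p = 0.129 to 0.738).

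**Figure D5:**
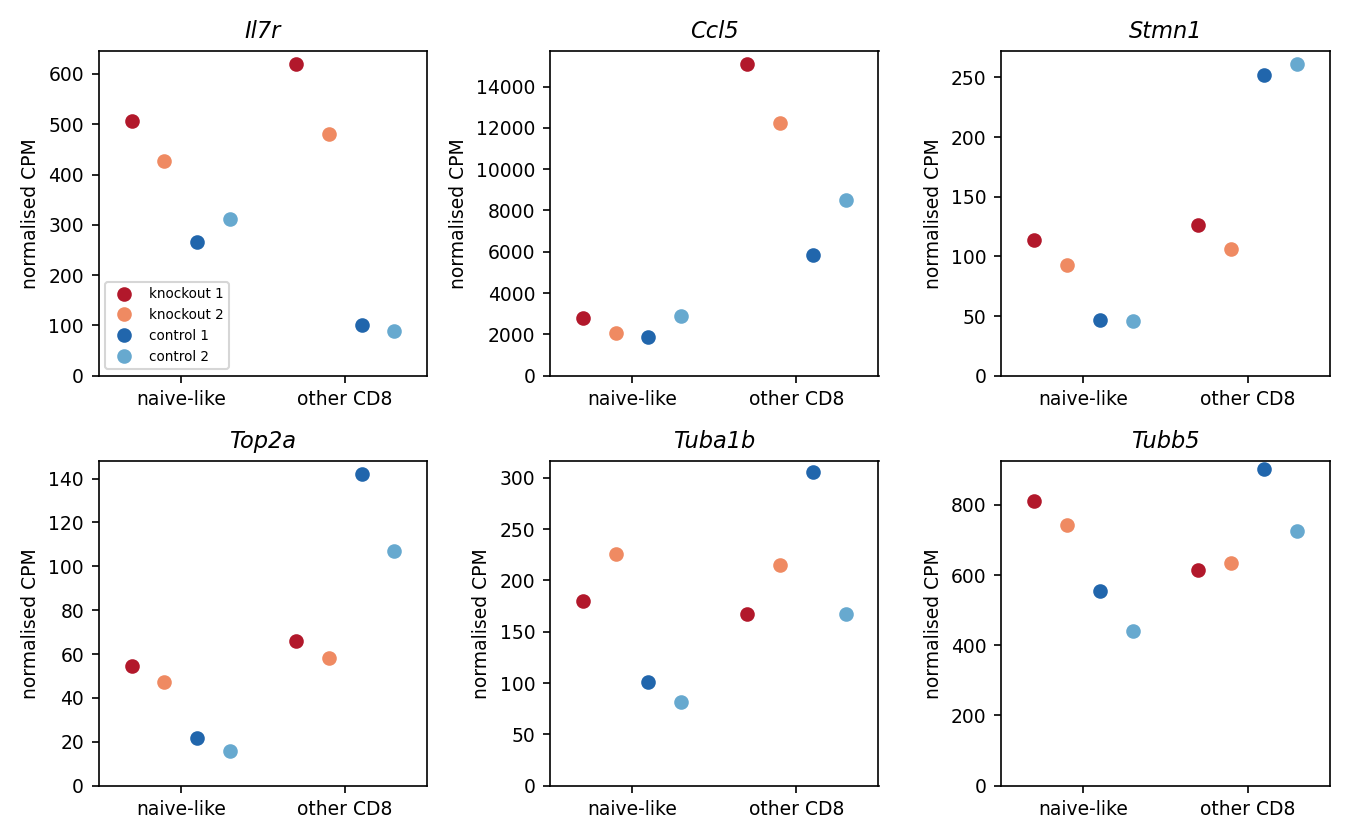
Normalised CPM of 6 genes in members and in the other CD8 T cells of each mouse, each population on its own scaling. Il7r is separated by genotype in both populations and by more in the other CD8 T cells, and Stmn1 and Top2a are separated in opposite directions.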

How the data were processed

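Each of 4 mice gave a 5′ gene expression library and a T cell receptor library. The deposited UMI counts were made by the authors with Cell Ranger 8.0.1 on GRCm39, with Seurat 5.0.1 and R 4.4.1 also named, per the submitters' processing notes. The replicate numbers are names from the labels, and the group of each mouse is its labelled genotype. Barcodes below 200 genes or above 10% mitochondrial UMIs were left out. Scrublet (scanpy 1.11.5) was run per library and its doublets were left out only in an alternative. UMIs were summed per mouse and population. Genotype was tested with edgeR 4.0.16 (quasi-likelihood, TMM, 2 mice against 2, Benjamini-Hochberg over all genes), and the population difference in 1 fit with the mouse as a block. Single values had exact permutation tests (scipy 1.17.1). The fits were tested on simulated data. Named genes were the 10 largest called changes in each direction that were separated by genotype, at 20 CPM or more and not prone to free RNA; up to 5 called genes per list; fixed genes; and, for members against other CD8 T cells, the 10 largest differences each way at 100 CPM or more. The members and lists were chosen with earlier results of these data known. Gene positions and germline segments came from GENCODE M39. Same-numbered mice did not deviate together (r = -0.032 across 9299 genes), so numbers were not used for pairing. Alternatives covered scaling, low-count filters, DESeq2 1.42.0, cell filters, the Lef1 cut, thinning and leaving out each mouse; those without Ccl5 cells and without doublets plus marker-holding cells were chosen after seeing the data. Intervals cover counting error only. A few genes, and the values and the alternative that need them, are not reported here.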

Additional observations from a re-analysis of the deposited data

Results flagged for a closer look

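For 14 named genes the knockout effect in members differed from that in the other CD8 T cells by edgeR's interaction test, which is what singled them out. The values are members minus other CD8 T cells on the log2 scale. Genes with a higher effect in members were Top2a (2.45), Stmn1 (2.32), Rrm2 (2.21), Tuba1b (1.48), Tubb5 (1.05), Tubb4b (1.00) and Tox (0.97). Genes with a lower effect in members were Il7r (-1.80), Cish (-1.62), Ccr2 (-1.60), Entpd1 (-1.42), Ccl5 (-0.90), Isg15 (-0.70) and Dnaja1 (-0.57). Tubb4b was chosen after its values were seen.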

How the results depend on the processing

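Leaving out 1 mouse moved the genotype difference in the share of CD8 T cells from -16.8 to 7.33 points, that in the share of all cells from 0.943 to 2.15, that in the share in repeated clones from -0.680 to 0.967, the member-minus-other difference in that share from -65.6 to -52.4, and the CDR3 length difference from -0.42 to -0.12 nucleotides. The counts of genes ranged from 160 to 289 in members, 429 to 2070 in the other CD8 T cells and 121 to 349 for the difference between populations, and the count of TRBV segments from 0 to 1. With at least 2 Lef1 UMIs the share of CD8 T cells differed by 0.98 points, CDR3 length by 0.080, and 126, 45 and 0 genes, interactions and segments passed. Without marker-holding cells the share of all cells differed by 0.588 points and 36, 66 and 0 passed. Thinning to 1000 UMIs before the choice of members gave 0.502 points for the share of all cells, -3.14 and -37.0 for repeated clones by genotype and population, 0.011 for CDR3 length, and 5, 0 and 0 calls. The repeated-clone share differed by -0.11 points without doublets and -0.18 with clones by both chains. Member genes numbered 763 with no filter on low counts, 243 with DESeq2, 16 without prone genes, 117 without doublets, 102 without Ccl5 cells and 37 without doublets and marker-holding cells. In the other CD8 T cells 2430, 853 and 392 passed with no filter, DESeq2 and without prone genes, and 329 and 427 interactions with at least 10 counts and no filter. The cause was not tested. With the replicate block, 419 member genes and 1170 genes of the other CD8 T cells passed; the mice share only a number, so the pairing is not part of the design. Library totals alone shifted all genes by -0.075 (log2) and gave 80 higher and 377 lower genes.

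Of 1345 values of 72 genes in members under the alternatives, 1008 kept direction and call, 252 lost the call, 9 gained one and 76 changed sign. Ccr2 and S100a4 passed in all members, and the other genes that changed sign did not. Without marker-holding cells these were Ccr2 0.063, S100a4 0.55, Klf2 -0.0030, Satb1 -0.19, Ly6c2 -0.12, Ccl5 -0.12, Klrd1 -0.10, Gzmk 0.10, Ifng -0.40, Tox -0.068 and Cd69 -0.19. Without doublets and marker-holding cells these were Ccr2 0.058, S100a4 0.54, Klf2 -0.011, Satb1 -0.19, Ly6c2 -0.13, Ccl5 -0.13, Klrd1 -0.11, Gzmk 0.099, Ifng -0.41, Tox -0.045 and Cd69 -0.21. After thinning to 1000 UMIs these were Tcf7 -0.027, Dapl1 -0.090, Klf2 -0.073, Il2rb -0.31, Ly6c2 -0.11, Klrd1 -0.17 and Cd69 -0.28. Without Ccl5 cells these were Tcf7 -0.012, Satb1 -0.030, Cxcr3 0.53, Cd69 -0.058 and Ifit3 -0.39. With RLE size factors the value was Igfbp4 0.0052. With a filter of 10 counts the value was Igfbp4 0.0031. With no filter the value was Igfbp4 0.037. With DESeq2 the value was Igfbp4 0.020. With the replicate block the value was Igfbp4 0.037. With 1 cell per clone these were Igfbp4 0.0074, Ly6c2 -0.0091 and Ccl5 -0.12. Without genes prone to free RNA these were Satb1 -0.0052, Ccl5 -0.094, Klrd1 -0.050 and Cd69 -0.064. Without doublets these were Satb1 -0.017, Ly6c2 -0.089, Ccl5 -0.082, Klrd1 -0.023 and Cd69 -0.073. With library totals alone these were Ly6c2 -0.088, Ccl5 -0.079, Klrd1 -0.021 and Cd69 -0.024. With at least 2 Lef1 UMIs these were Ccl5 -0.13, Klrd1 -0.0015, Ifng -0.39 and Tox -0.071. Leaving out 1 mouse gave the ranges Dapl1 -0.14 to 1.05, Igfbp4 -0.31 to 0.49, Klf2 -0.11 to 0.80, Ly6c2 -0.33 to 0.45, Cxcr3 -0.88 to 0.39, Ccl5 -0.25 to 0.35, Klrd1 -0.27 to 0.32, Klrc1 -0.15 to 0.84, Gzma -1.19 to 0.13, Gzmk -7.10 to 0.46, Cd69 -0.34 to 0.70 and Isg15 -0.29 to 1.59. Control mouse 2 had the fewest members, 134. In simulated data 59% of 2-fold and 93.9% of 4-fold changes were recovered in members, and 10% and 78% for the difference between populations. False calls numbered 8 over 9025 genes in members and 2 over 10509 genes for that difference. The changed genes were drawn only from genes with higher counts, and no free RNA was simulated. Recovery over all genes tested was thus not measured.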
